A study of Mus musculus with 2 samples.

Results

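The mitochondrial carriers studied here were the protein-coding genes of the mouse annotation whose symbols begin with Slc25a, together with Ucp1, Ucp2, Ucp3, Mtch1 and Mtch2. The rule used names only and no measured value, and it gave 52 genes among 21474 named protein-coding genes. Their RNA was read in 2 pieces of cerebellar granule layer taken by laser capture from adult male wild-type C57Bl6 tissue (strain label B6NCrl) at 8 months of age. Each piece, called an area here, measured 18000 square microns, was given as a starting quantity of 50 cells and gave 1 Smart-seq library (a full-length method for few cells) from total RNA. The areas form 1 group with no treatment and no contrast, share 1 donor label and are numbered replicates 1 and 2. The labels do not say if the donor label stands for a single animal. The SD given beside a mean (n = 2) is therefore a spread between areas and may hold no spread between animals.

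The inner mitochondrial membrane is closed to charged metabolites, and the SLC25 proteins are the gates through it. Each is a small protein of repeated membrane-spanning units. Many of them exchange substrates, such as ADP for ATP, by opening to a single side of the membrane at a time. Nerve cells depend on the SLC25 proteins to export ATP, to bring in phosphate and reducing equivalents, and to move glutamate and aspartate. Not every member sits in the inner membrane: Mtch1, Mtch2 and Slc25a46 are known as outer membrane proteins, and Slc25a17 works in peroxisomes.

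The total expected count was 19962271 in replicate 1 and 19261911 in replicate 2, and reads are not independent molecules after amplification, so every limit from counts covers counting error only. The granule neuron markers were present, with all 9 of 9 detected and a summed level of 2950 TPM (transcripts per 1e6) in replicate 1 and 3211 in replicate 2. Markers of astrocytes and Bergmann glia summed to 748 and 724 TPM and those of oligodendrocytes to 571 and 703 TPM, beside those of the granule neurons. Red blood cell markers summed to 5112 TPM in replicate 1 and 449 in replicate 2, the widest gap among the 10 marker lists. In such a piece of tissue, fewer cells of a type and less RNA per cell cannot be told apart.

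The sequences below come from the reference transcripts of GENCODE M21 on GRCm38 and are printed 5′ to 3′ in the sense of the mRNA. The first pair is shown because Slc25a4 and Slc25a5, which encode the ADP/ATP carriers of the inner membrane, are paralogs whose reads had to be told apart. These are their first 111 coding bases, at chr8:46210812-46210922 on the minus strand and chrX:36795731-36795841 on the plus strand, with the 25 positions that differ in capitals.
Slc25a4: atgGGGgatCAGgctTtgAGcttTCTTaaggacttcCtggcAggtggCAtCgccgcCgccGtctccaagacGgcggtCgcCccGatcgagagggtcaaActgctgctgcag
Slc25a5: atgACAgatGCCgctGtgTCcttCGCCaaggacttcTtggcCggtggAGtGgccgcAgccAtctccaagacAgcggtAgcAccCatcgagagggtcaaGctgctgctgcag
Over the whole coding sequence 692 of 894 bases were identical (77.4%), and the longest identical run between the 2 whole transcripts was 20 bases. The deposited posterior SD of a count, a measure of uncertainty in assigning reads, was 1.54 and 1.52 counts for Slc25a5 and 0 for Slc25a4.

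The second pair is shown because Slc25a3, which encodes the phosphate carrier, holds alternative exons of which a transcript carries one. Exon 3A is known from heart and skeletal muscle and exon 3B from most tissues. They lie at chr10:91122207-91122331 and chr10:91121922-91122043 on the minus strand and are 125 and 122 bases long. Capitals mark bases that differ or have no partner in an alignment of the pair, in which 80 of 121 aligned bases were identical.
exon 3A: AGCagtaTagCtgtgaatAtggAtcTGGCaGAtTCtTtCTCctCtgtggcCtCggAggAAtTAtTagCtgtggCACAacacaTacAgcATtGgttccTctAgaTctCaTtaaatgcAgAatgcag
exon 3B: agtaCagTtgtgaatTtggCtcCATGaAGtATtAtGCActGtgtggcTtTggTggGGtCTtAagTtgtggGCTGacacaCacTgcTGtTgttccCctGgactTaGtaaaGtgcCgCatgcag

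As a family the carriers were more often detected than protein-coding genes in general, and their levels were very uneven. Detection required, in each of the libraries, no less than 1 TPM and no less than 5 expected counts. By that rule 37 of the 52 carriers were detected (71.2%), against 50.4% of all protein-coding genes. Their median level was 6.96 TPM over all 52, against 1.42 TPM over all protein-coding genes. There were 21 carriers with a mean of at least 10 TPM (40.4%), against 29.9% of protein-coding genes. The family summed to 2569 TPM in replicate 1 and 2651 in replicate 2. Between the 4 highest genes and the rest lay a wide gap: 4 stood above 300 TPM, none between 100 and 300, 17 between 10 and 100, another 17 between 1 and 10, and 14 under 1. The 4 highest held 75.0% of the summed level in replicate 1 and 76.7% in replicate 2.

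Other gene families were read the same way to place these figures. The 85 nuclear genes of the respiratory chain had a median of 615 TPM, with 82 detected, and that of the 77 mitochondrial ribosomal proteins was 81.4 TPM, with all 77 detected. The 324 other solute carriers had a median of 0.858 TPM, with 153 detected (47.2%). The mitochondrial carriers lay between these families, and no test was made between lists.

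**Figure D1:**
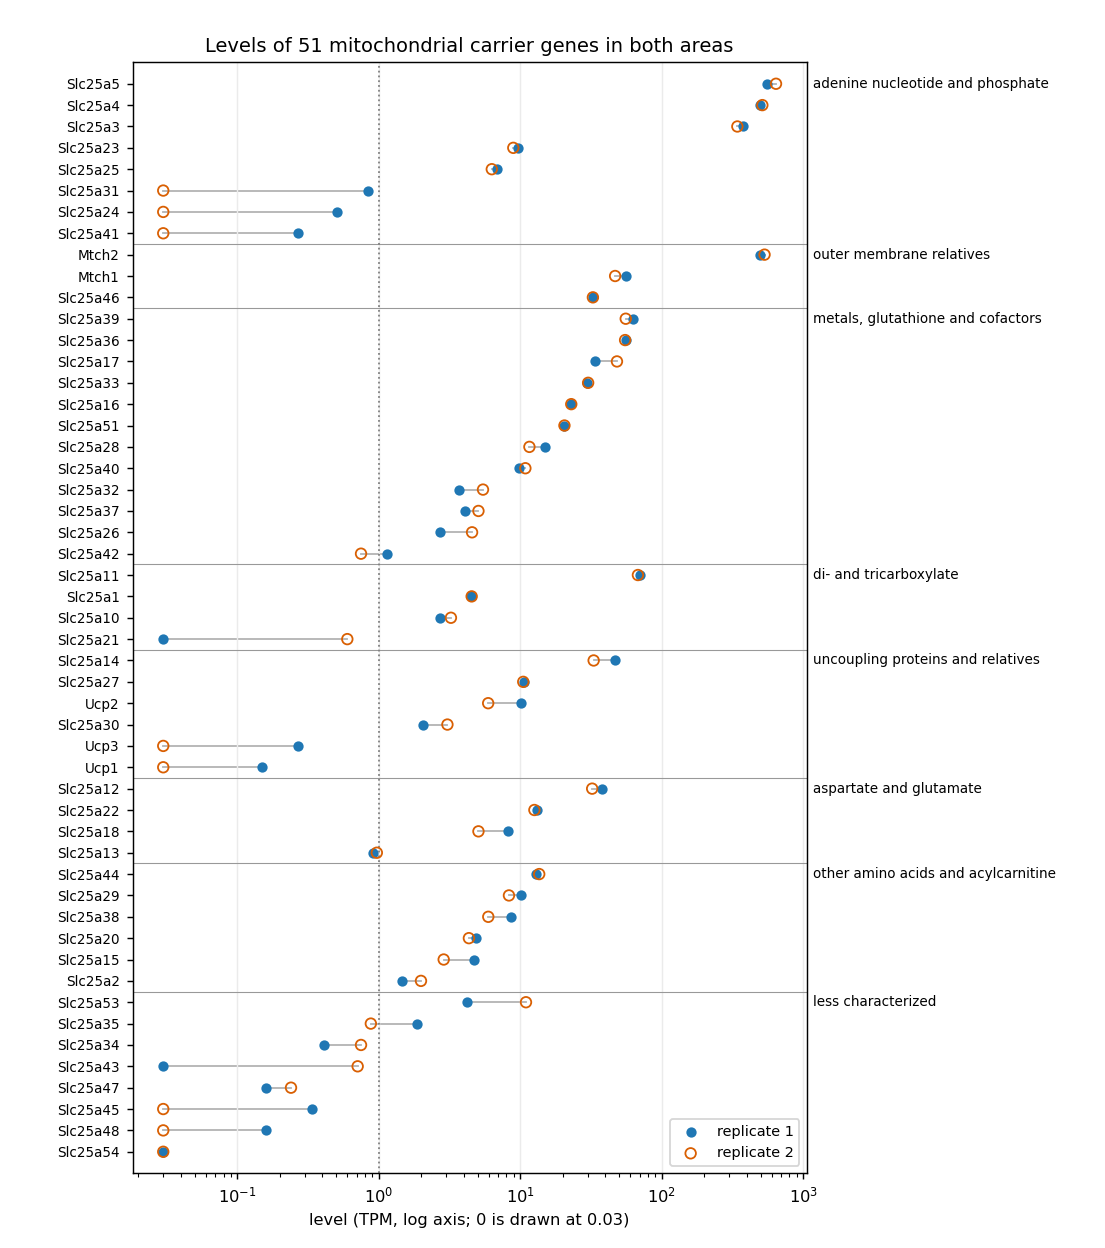
Level of 51 of the 52 carrier genes in TPM (log axis) in replicate 1 (filled) and replicate 2 (open), grouped by role, with a dotted line at 1 TPM and 0 drawn at 0.03. Slc25a5, Slc25a4, Slc25a3 and Mtch2 stand above 300 TPM in both areas, and 14 genes have a mean under 1 TPM.

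The carriers of ATP, ADP and phosphate held most of the family's RNA. The 8 genes of this role summed to 1453 TPM in replicate 1 and 1516 in replicate 2, which was 56.6% and 57.2% of all carriers, and 5 of the 8 were detected. Slc25a5 (ENSMUSG00000016319, chromosome X, 36795651 to 36798807), the ADP/ATP carrier of many tissues, was the highest carrier at 559 TPM in replicate 1 and 643 in replicate 2 (601 ± 59.5, SD, n = 2). Slc25a4 (chromosome 8, 46206797 to 46211284), the ADP/ATP carrier best known from heart, muscle and brain, stood at 498 and 515 TPM (506 ± 12.0). Slc25a5 was 1.12 times Slc25a4 in replicate 1 and 1.25 times in replicate 2, and their library ranges did not overlap. That order is per length: in expected counts Slc25a5 had 10876 and 12159 and Slc25a4 had 15304 and 15482 at effective lengths of 1794 bases for Slc25a4 and 1136 for Slc25a5 in replicate 1. Among all protein-coding genes they ranked 158 and 196. The third ADP/ATP carrier, Slc25a31, a gene known from testis, had 22 counts in replicate 1 (0.84 TPM) and 0 in replicate 2.

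Slc25a3 stood at 378 and 343 TPM (360.5 ± 25.1) and lay below both ADP/ATP carriers in both areas. Its transcripts typed protein-coding with exon 3B held 198 TPM in replicate 1 and 206 in replicate 2, and the one with exon 3A held 107 and 78.6 TPM. Exon 3A was therefore on 35.2% and 27.6% of them (31.4% ± 5.36, SD, n = 2), and exon 3B on the larger share in both areas. The exon sequences above differ enough for reads within them to be assigned, but the transcripts also differ in their ends. The posterior SD of the count of the exon 3A transcript was 152 counts of 2282 in replicate 1 and 154 of 1626 in replicate 2.

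The calcium-regulated ATP-Mg/phosphate carriers were far lower. Slc25a23 was at 9.66 and 8.94 TPM and Slc25a25 at 6.85 and 6.30 TPM. Over all transcripts their ratio was 1.41 in replicate 1 and 1.42 in replicate 2. A transcript not typed protein-coding held 45.5% and 44.7% of the Slc25a23 level. Its transcript typed protein-coding held 5.27 and 4.94 TPM. The leading protein-coding transcript of Slc25a25 was higher, at 5.93 and 5.62 TPM. On transcripts typed protein-coding alone the order was therefore reversed in both areas. Slc25a24 had 9 counts in replicate 1 and Slc25a41 had 5, and both had 0 in replicate 2. At this depth a 0 is compatible with up to 3 counts, or 0.150 per 1e6 gene counts in replicate 1 and 0.156 in replicate 2.

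The outer membrane relatives came next, summing to 581 and 613 TPM, and all 3 were detected. Mtch2, which inserts proteins into the outer membrane, was the second highest member at 492 and 533 TPM (513 ± 29.3). Its range overlapped that of Slc25a4, so these neighbours in the order cannot be ranked from these areas. Mtch1 was at 56.3 and 46.9 TPM, and over all transcripts Mtch2 was 8.73 times Mtch1 in replicate 1 and 11.4 times in replicate 2. Transcripts typed protein-coding held 17.6% and 15.8% of the Mtch2 level but 76.7% and 84.9% of the Mtch1 level. On those transcripts alone the ratio was therefore smaller. Slc25a46, which takes part in mitochondrial membrane fusion and shape and is a gene of inherited neuropathy and ataxia, was at 32.7 TPM in both areas.

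Malate, aspartate and glutamate carriers were led by those of the malate-aspartate shuttle, the cycle that brings the electrons of cytosolic NADH into mitochondria. Slc25a11, which exchanges 2-oxoglutarate for malate, was at 69.9 and 67.9 TPM (68.9 ± 1.41) and was the highest member after the leading 4. Slc25a12, the aspartate/glutamate carrier known as aralar, was at 38.0 and 32.3 TPM, whereas its paralog Slc25a13, known as citrin and best known from liver, was at 0.91 and 0.97 TPM with 33 and 29 counts. Slc25a12 exceeded Slc25a13 by 41.8 times in replicate 1 and 33.3 times in replicate 2 per length, and by 55.2 and 56.2 times in counts. Of the glutamate carriers proper, Slc25a22 was at 13.2 and 12.6 TPM and Slc25a18 at 8.24 and 5.07 TPM. Slc25a22 was the higher in both areas, by 1.60 and 2.49 times per length and by 1.44 and 2.59 times in counts. A transcript of 402 bases with 37.9 and 29.6 counts held 7.29 and 5.85 TPM of the Slc25a22 level. The order per length in replicate 1 therefore rests on that short model. Slc25a18 is known as an astrocyte gene, and the astrocyte list, with none of its 8 genes at 0, summed to 748 TPM in replicate 1 and 724 in replicate 2. Its part in the Slc25a18 level was not tested.

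Among the remaining carboxylate carriers, the citrate carrier Slc25a1 was at 4.49 and 4.54 TPM and the dicarboxylate carrier Slc25a10 at 2.73 and 3.24 TPM. Slc25a11 was 25.6 times Slc25a10 in replicate 1 and 21.0 times in replicate 2. The oxodicarboxylate carrier Slc25a21 had 0 counts in replicate 1 and 17 in replicate 2. The carboxylate group was thus carried by 1 gene.

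The uncoupling proteins and their relatives summed to 69.8 TPM in replicate 1 and 52.6 in replicate 2, with 4 of 6 detected. Slc25a14, also called UCP5 or brain mitochondrial carrier protein, led at 46.6 and 33.1 TPM. Slc25a27, the brain gene also called UCP4, was at 10.6 and 10.5 TPM. Ucp2, which many tissues express and microglia strongly, was at 10.1 and 5.94 TPM, and Slc25a14 exceeded it by 4.63 and 5.57 times. Its transcripts Ucp2-207 and Ucp2-208, of 519 and 464 bases, are not typed protein-coding. They held 3.41 and 2.91 TPM in replicate 1, on 24.5 and 18.2 counts, and 1.89 and 1.02 TPM in replicate 2. The Ucp2 level in TPM and its ratio to Slc25a14 therefore rest in large part on short models with few counts. Microglia markers summed to 86.7 TPM in replicate 1 and 66.0 in replicate 2 with none of the 6 at 0. In the exact binomial test described below, 3 of these 6 markers passed with replicate 1 higher, against 24.0% of all genes tested. Cx3cr1 passed with replicate 2 higher, at 0.29 and 0.99 TPM, as did 23.7% of all genes tested. C1qa and Csf1r did not pass. The part of the microglia markers in the Ucp2 level was not tested. Slc25a30 was at 2.07 and 3.06 TPM. Ucp1, the heat-producing uncoupler of brown fat, had 4 counts in replicate 1 and 0 in replicate 2, and Ucp3, known from muscle, had 11 and 0. Of 6 brown fat markers 3 were detected, Cidea at 5.04 and 5.92 TPM, Cox8b at 3.99 and 1.37 TPM and Cpt1b at 1.62 and 1.02 TPM. Prdm16 was at 0.99 and 1.05 TPM, and Elovl3 and Adipoq were at 0 in both libraries. Their part in the Ucp1 counts was not tested.

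Carriers of metals, glutathione and cofactors were the most numerous group, with 12 of 13 detected, and summed to 278 and 291 TPM. Slc25a39, a carrier of glutathione, was at 63.0 and 55.7 TPM, and its paralog Slc25a40 at 9.80 and 10.9 TPM. Slc25a36 and Slc25a33, which carry pyrimidine nucleotides, were at 55.7 and 55.2 TPM and at 29.6 and 30.2 TPM. Their ratio per length was 1.88 in replicate 1 and 1.82 in replicate 2, and in counts it was 3.04 and 2.79. The peroxisomal Slc25a17 was at 33.6 and 48.3 TPM.

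Of the cofactor carriers, Slc25a16 and Slc25a51 were steady between the areas. Slc25a16, linked to coenzyme A, was at 22.9 and 23.0 TPM, and Slc25a51, the NAD carrier, at 20.5 and 20.6 TPM. Slc25a42, the other coenzyme A carrier, was the member of this group that was not detected, at 1.15 and 0.75 TPM. Slc25a32, which serves folate and FAD, was at 3.71 and 5.46 TPM and the S-adenosylmethionine carrier Slc25a26 at 2.71 and 4.57 TPM.

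Of the mitoferrins, which import iron, Slc25a28 was at 14.9 and 11.6 TPM and Slc25a37 at 4.07 and 5.07 TPM. Slc25a28 was thus higher per length by 3.67 times in replicate 1 and 2.29 times in replicate 2, while their expected counts were alike, at 362 and 274 against 310 and 303. Slc25a37 is the mitoferrin of red cell precursors. The red blood cell markers summed to 5112 TPM in replicate 1 and 449 in replicate 2, and none of those 6 was at 0 in either library. Their part in the levels of Slc25a37, Slc25a28 and the haem-related Slc25a38, of which the latter pair was higher in replicate 1, was not tested.

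Carriers of other amino acids and acylcarnitine were all detected (6 of 6) but low, and summed to 42.9 and 37.1 TPM. Slc25a44, a carrier of branched-chain amino acids, was at 13.0 and 13.6 TPM, and the basic amino acid carrier Slc25a29 at 10.2 and 8.33 TPM. Slc25a38, a glycine carrier of haem synthesis, was at 8.60 and 5.95 TPM. Slc25a20, which brings in acylcarnitines for fatty acid oxidation, was at 4.91 and 4.34 TPM. The ornithine carriers Slc25a15 and Slc25a2 were at 4.74 and 2.88 TPM and at 1.47 and 1.99 TPM.

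The 8 less characterized members were nearly all low: 1 of them was detected, and the group summed to 7.13 TPM in replicate 1 and 13.6 in replicate 2. The detected one, Slc25a53 (chromosome X, 136981116 to 137038302), was at 4.20 and 10.99 TPM. Its leading transcript, at 45.4% of that level in replicate 1 and 56.0% in replicate 2, is not typed protein-coding. Each Slc25a53 transcript typed protein-coding held at most 0.47 TPM in either area. The detection of Slc25a53 therefore rests largely on transcripts of other types. Slc25a35 missed the rule in replicate 2, at 1.86 and 0.88 TPM. The others were Slc25a34, Slc25a43, Slc25a45, Slc25a47, Slc25a48 and Slc25a54, with mean levels from 0 to 0.58 TPM. Slc25a54 was the only one of the 52 with 0 counts in both libraries.

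Several of the genes near 0 lie beside an expressed relative. Among the 52, 5 neighbouring pairs lay less than 50 kb apart. Slc25a5, at a mean of 601 TPM, followed Slc25a43, at 0.355 TPM, after 18448 bases on chromosome X. Ucp2 at 8.01 TPM followed Ucp3 at 0.135 TPM after 6904 bases on chromosome 7. Slc25a23 at 9.30 TPM and Slc25a41 at 0.135 TPM were 2056 bases apart on chromosome 17. Slc25a29 at 9.25 TPM and Slc25a47 at 0.200 TPM pointed away from each other across 162 bases on chromosome 12. By mean level, 1 gene was near 0 and the other above 8 TPM in 4 of the 5 pairs, though Ucp2 was at 5.94 TPM in replicate 2. In the fifth pair, Slc25a54 and Slc25a24 on chromosome 3, both were near 0. Of all 52 carriers 14 had a mean under 1 TPM. Pairs further apart were not examined, so this count is not read as particular to neighbours.

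The areas were close in most carrier levels. Of the 52, 47 had a summed count of at least 10, and on the scale of log2(TPM + 1) their median absolute difference between the areas was 0.26, against 0.20 over protein-coding genes of that depth. On that scale Slc25a53 was over 2-fold apart, 1 of 47 carriers, against 1.94% of protein-coding genes. This count rests on the pseudocount of 1: with 0.1 it was 7 carriers, against 10.7% of protein-coding genes, and with 5 it was 0. Slc25a53 was 1.21 higher in replicate 2 on that scale. Its counts, 153 and 269, differed less than its TPM, because the estimated length was 2125 bases in replicate 1 and 1469 in replicate 2. It also overlaps Zcchc18 on the opposite strand by 5318 bases, a gene at 114 and 107 TPM. Whether counting used the strand is not stated, so reads of these genes may not be separable and the Slc25a53 level is uncertain. In all, 19 of the 52 carriers overlap a gene on the opposite strand. Slc25a35 overlaps 1882 bases of Rangrf, a gene at 59.3 and 53.5 TPM, and its level is uncertain too. Shorter overlaps were those of Slc25a11 with Rnf167, over 245 bases, and of Slc25a18 with Atp6v1e1, over 32 bases.

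Each gene's counts in the libraries were set against the library totals in an exact binomial test, two-sided and adjusted by Benjamini-Hochberg over 16479 genes. The test compares these 2 libraries, not conditions. It called 23 of the 47 carriers beyond counting error, against 47.7% of all genes tested, so the carriers were near the background. Of the 23, 12 were higher in replicate 1 and 11 in replicate 2, against 24.0% and 23.7% of all genes. The high counts of the leading genes make small differences pass: Slc25a4 differed by 0.05 on the log2 scale with an adjusted p of 0.000166 in this exact test. Slc25a5 was 0.20 higher in replicate 2 (adjusted p = 8.03e-27) and Slc25a3 was 0.14 higher in replicate 1 (adjusted p = 7.75e-07), both by the exact test. Those 2 genes moved in opposite directions. With all counts divided by 10, a stand-in for reads that are copies of each other, none of the 47 carriers passed, against 0.698% of all genes.

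Among the 21 carriers of at least 10 TPM, Slc25a17 and Slc25a14 were furthest apart. Slc25a17 was 0.51 higher in replicate 2 (adjusted p = 5.50e-16, exact binomial test) and Slc25a14 was 0.48 higher in replicate 1 (adjusted p = 1.54e-12, same exact test). By contrast, 16 of the 21 had values less than 1.2 times apart, among them Slc25a46, Slc25a16, Slc25a51, Slc25a27, Slc25a36, Slc25a33 and Slc25a11. That share was not computed over all protein-coding genes of this level, so it is not read as particular to the carriers. Among the lower genes, Ucp2 was 0.67 higher in replicate 1 (adjusted p = 0.000377) and Slc25a18 was 0.61 higher there (adjusted p = 0.000389), again by the exact binomial test.

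**Figure D2:**
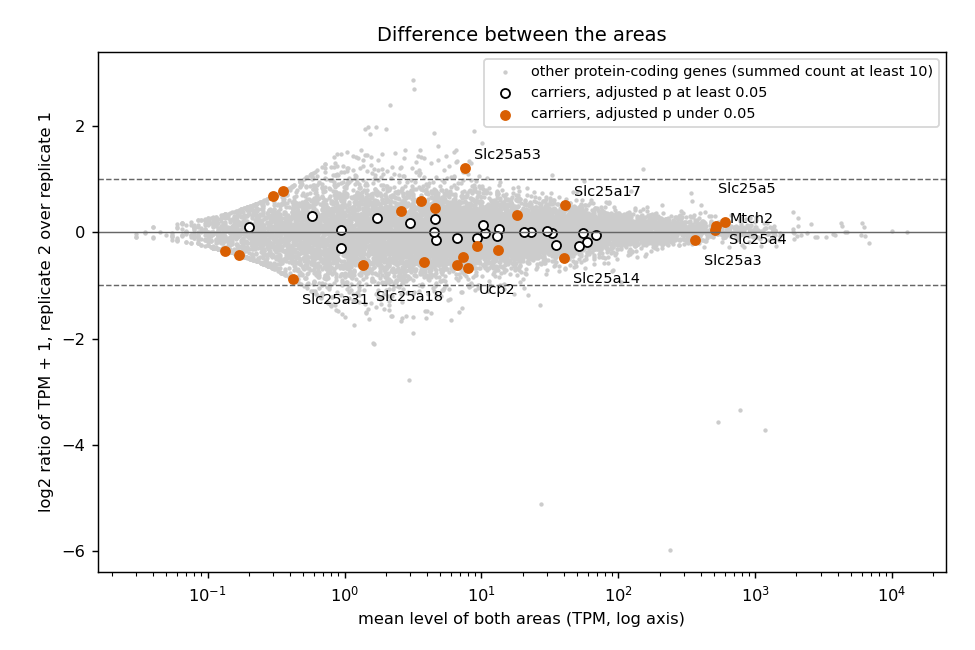
Difference between the areas (log2 ratio of TPM + 1, replicate 2 over replicate 1) against the mean level in TPM (log axis) for 47 carriers (filled where the adjusted p of the exact binomial test was under 0.05, open otherwise) and, in grey, protein-coding genes with a summed count of at least 10; dashed lines mark a 2-fold difference. With this pseudocount of 1, Slc25a53 is the 1 carrier past a line, and the 4 highest carriers lie between -0.14 and 0.20.

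The deposited transcript tables showed which transcripts carried these levels, with transcript types taken from GENCODE M21. Over the 21 carriers of at least 10 TPM the median share of TPM on protein-coding transcripts was 95.6%, against 95.8% over 6426 protein-coding genes of that level. It was at least 90% in both libraries in 11 of the 21 (52.4%), against 55.7% of the 6426, with Slc25a5 at 98.8% and 98.7% and Slc25a4 at 95.1% and 96.9% among the 11. In Mtch2 and Slc25a12 it was under 50%, 2 of 21 genes, against 16.9% of the 6426.

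Mtch2 had 17.6% of its TPM on protein-coding transcripts in replicate 1 and 15.8% in replicate 2. Its leading transcript, of 1066 bases, is typed as a target of nonsense-mediated decay and held 40.3% and 40.2%. The high gene level of Mtch2 therefore rests largely on transcripts that the annotation does not type as coding. The highest coding transcript is longer, at 2281 bases, with a last exon of 1457 bases against 205. It had 2095 and 1616 counts beside 3288.5 and 3452 for the decay target, with a posterior SD of 250.2 and 265 counts for the coding one and 102 and 108 for the decay target.

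Slc25a12 had 21.9% and 24.7% of its TPM on its protein-coding transcript Slc25a12-206, and 57.8% and 62.0% on Slc25a12-207, typed as a decay target. The coding transcript holds an exon of 116 bases that Slc25a12-207 skips. It is printed because its skipping sets the annotated types apart, and it lies at chr2:71333605-71333720 on the minus strand.
Slc25a12 skipped exon: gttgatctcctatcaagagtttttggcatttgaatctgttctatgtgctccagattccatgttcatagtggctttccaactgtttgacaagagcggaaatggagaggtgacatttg
The transcripts also differ in their last exon, which has 4291 bases in Slc25a12-206 and 664 in Slc25a12-207. Their expected counts were nearly level, at 893 and 830 for Slc25a12-206 and 864 and 765 for Slc25a12-207, so the share by TPM rests on the length of the last exon as well as on the skipped exon. How many reads crossed the skipped exon was not analysed here.

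Other carriers used several transcripts at once. In 10 of the 21, at least 2 transcripts each held 10% or more in both libraries. The share of all protein-coding genes of that level with such transcripts was not computed, so the count is not read as particular to the carriers. The leading transcript of Slc25a22, at 55.1% and 46.5%, was a fragment of 402 bases with 37.9 and 29.6 counts, so the TPM of Slc25a22 depends on that short model. In Slc25a14 the protein-coding Slc25a14-208 led with 40.5% and 52.3%, though its posterior SD was 119.5 of 458 counts in replicate 1. Slc25a39 was not among these 10, and its protein-coding Slc25a39-201 held 69.7% in replicate 1 and 96.6% in replicate 2. The posterior SD of that transcript was 92.1 of 1193 counts in replicate 1 and 55.25 of 1422 in replicate 2.

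**Figure D3:**
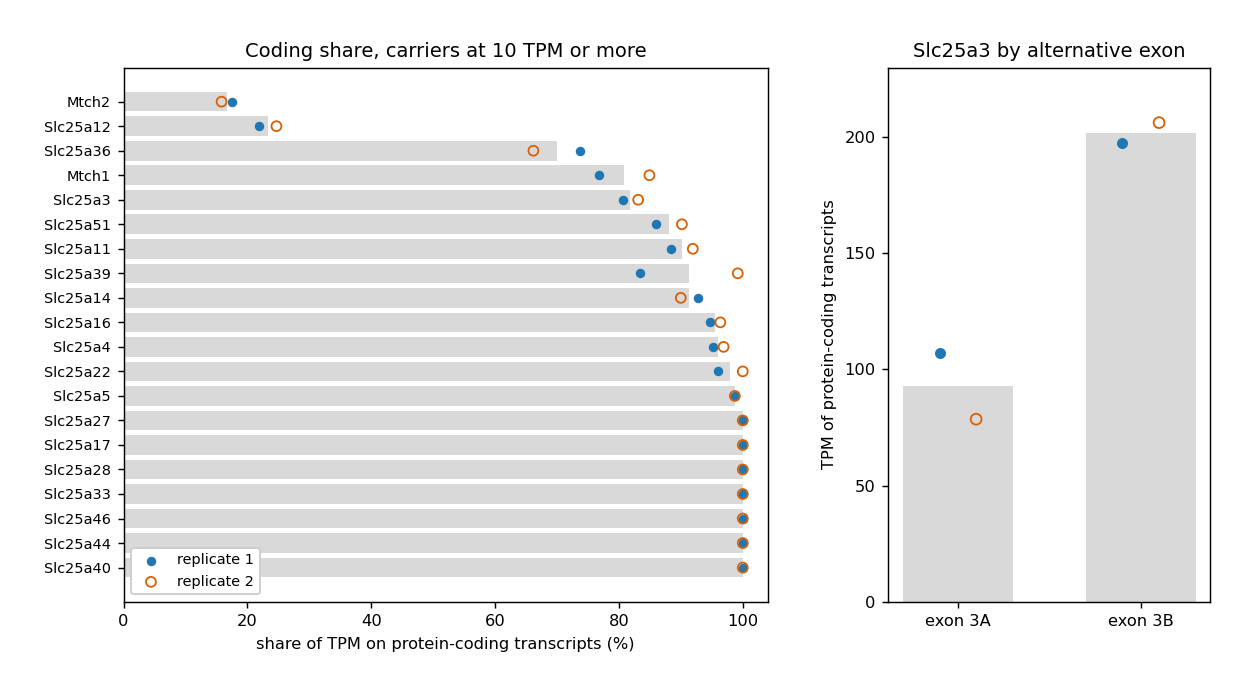
Left, share of TPM on transcripts typed protein-coding for 20 of the 21 carriers of at least 10 TPM (bar, mean, filled point, replicate 1, open point, replicate 2). Right, TPM of Slc25a3 transcripts typed protein-coding with exon 3A or exon 3B, drawn the same way. Mtch2 and Slc25a12 lie under 50% in both areas, and exon 3B stands above exon 3A in both.

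The genes that work with the carriers were taken from 7 lists of import, shuttle and other transport genes, and 49 of their 52 genes were detected, with a median of 51.8 TPM. Of the 52, 11 were beyond counting error with replicate 1 higher and 14 with replicate 2 higher by the exact binomial test. The shares over all genes tested were 24.0% and 23.7%. In all, 25 of the 52 were called, against 47.7% of all genes tested, so these genes were near the background. Ckmt2 had too few counts to be tested. In the malate-aspartate shuttle the cytosolic malate dehydrogenase Mdh1 was at 925 and 953 TPM and the mitochondrial Mdh2 at 355 and 390 TPM. The aminotransferases were lower, with the cytosolic Got1 at 147 and 136 TPM and the mitochondrial Got2 at 20.6 and 21.9 TPM. Slc25a11 and Slc25a12 lay between Got1 and Got2 in level. The alternative glycerol phosphate shuttle was low in its 3 genes, with the mitochondrial Gpd2 at 25.3 and 26.1 TPM and the cytosolic Gpd1 at 6.78 and 7.06 TPM.

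Other transport across the inner membrane was led by the mitochondrial pyruvate carrier, with Mpc1 at 982 and 1047 TPM and Mpc2 at 244 and 254 TPM. Mpc1 thus stood above every SLC25 gene in both areas. Of the calcium uniporter genes, the regulator Micu3, known from brain, was at 638 and 675 TPM, the small subunit Smdt1 at 277 and 280 TPM and the pore Mcu at 60.4 and 56.1 TPM. The pore paralog Mcub and the sodium/calcium exchanger Slc8b1 were not detected, at 1.10 and 0.18 TPM and at 0.38 and 0.60 TPM. The outer membrane channels Vdac3, Vdac2 and Vdac1 were at 378 and 436, 256 and 238, and 116 and 105 TPM.

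All 16 genes of the carrier import route were detected, with a median of 76.2 TPM. SLC25 proteins are made in the cytosol, handed to the receptor TOM70, passed on by the small TIM chaperones and inserted by the TIM22 complex. The chaperones Timm9 and Timm10 were at 71.6 and 75.3 TPM and at 76.9 and 81.0 TPM, the receptor Tomm70a at 48.9 and 52.3 TPM and the insertase Timm22 at 55.2 and 47.0 TPM. The highest in the list were Timm8b at 708 and 765, Tomm6 at 396 and 452 and Tomm5 at 236 and 234 TPM.

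Enzymes that use or supply carried substrates were also present. The glutamine synthetase gene Glul was at 64.8 and 82.1 TPM and the glutamate dehydrogenase gene Glud1 at 36.2 and 38.3 TPM. The brain creatine kinase Ckb was at 911 and 920 TPM and the mitochondrial Ckmt1 at 179 and 156 TPM, whereas the muscle form Ckmt2 had 1 count in replicate 1 and 0 in replicate 2. Ppif, the cyclophilin of the permeability transition, was at 12.3 and 12.9 TPM.

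**Figure D4:**
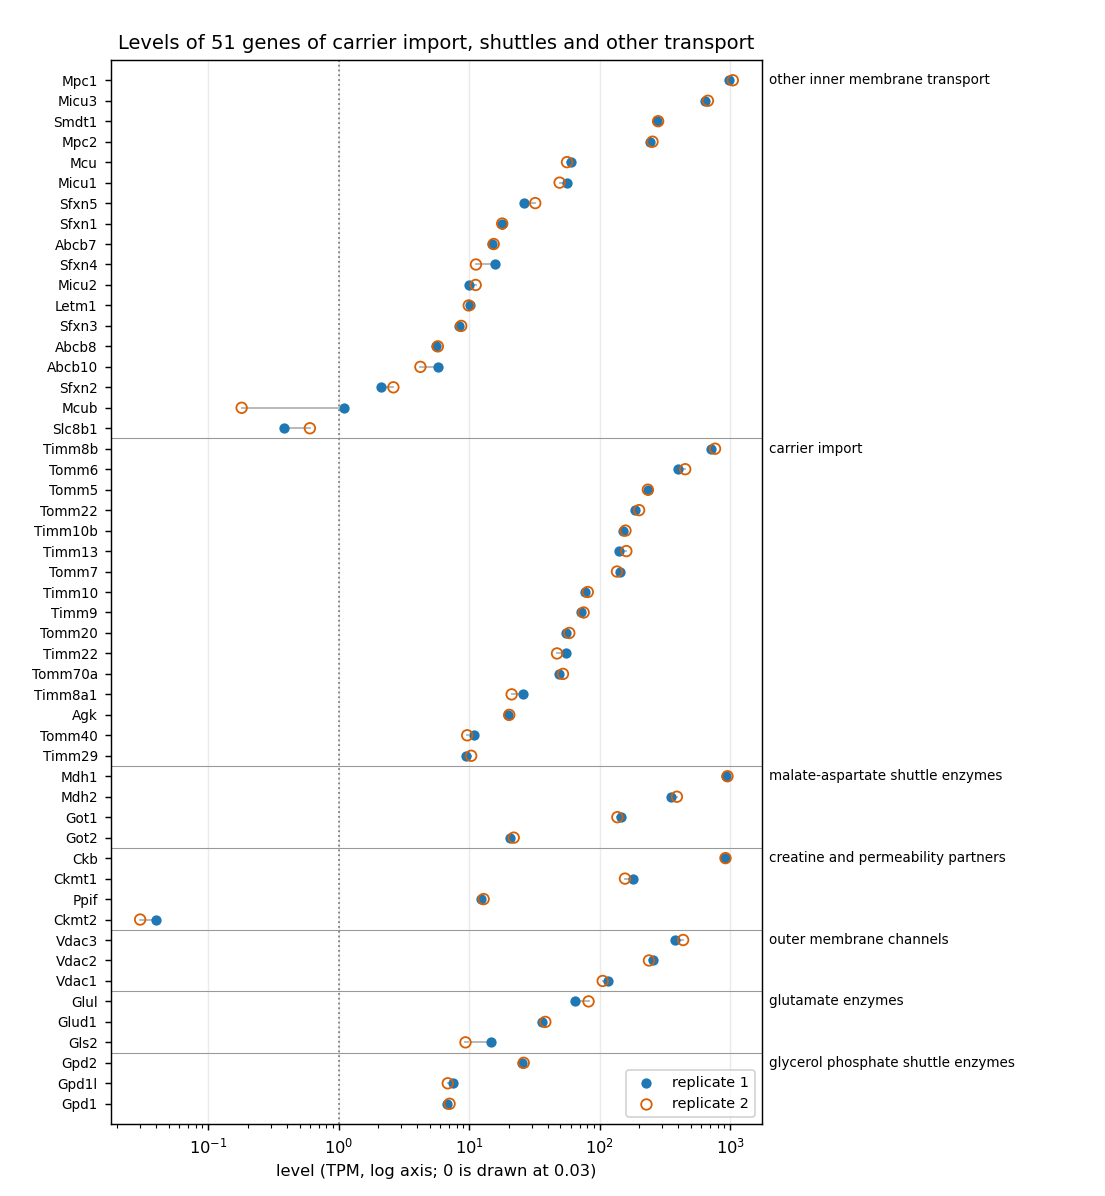
Level in TPM (log axis) of 51 of the 52 genes from 7 lists of transport, import and shuttle genes in replicate 1 (filled) and replicate 2 (open), with a dotted line at 1 TPM and 0 drawn at 0.03. Mpc1, Mdh1 and Ckb are highest, and Ckmt2, Slc8b1 and Mcub lie at the low end.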

How the data were processed

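RNA from 2 laser-captured areas of the granule layer was measured, 1 library each. The deposited notes name mm10 as build and GENCODE M4 as annotation; which aligner, counting program and strand setting were used is not given in the sources used here. The expected counts deposited by the authors share reads among genes and isoforms, per the file headers the deposited TPM and FPKM values were normalized by the authors for length and library total, the deposited percent column gives a transcript's share of its gene, and the deposited score column is a posterior SD of the count. Names, types and coordinates came from GENCODE M21 on GRCm38 (the build of mm10) by ID, for 42462 of 43346 Ensembl rows; unnamed rows held 0.432% and 0.435% of counts and stayed in the totals. The 26345 other rows (numeric IDs and spike-ins) were left out, with 2.78% and 3.40% of counts.

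Levels are TPM per library and mean ± SD. Counts were rounded for the binomial test (scipy 1.17.1), which recovered most 2-fold changes planted in simulated Poisson counts, that is, counts with counting noise only. That simulation checks how the test works and does not cover the wider spread of the real counts. The chi-square of the counts was 17.3 times its degrees of freedom, so the libraries differ beyond counting noise and were kept as 2 samples. Scaling alternatives used edgeR 4.0.16 and DESeq2 1.42.0. Values are given for carriers of at least 10 TPM, the highest of each role, Ucp1 to Ucp3, those over 2-fold apart and the 3 highest genes of each partner list; the other genes were named after their values were seen. The members, lists and pairs were chosen with earlier results of these data known. Slc25a52, 1 of 53 listed names, matched no gene. Values of 1 carrier and of 1 partner gene are not reported here singly; both stay in the counts, sums and medians.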

Additional observations from a re-analysis of the deposited data

How the results depend on the processing

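Ratios between carriers changed with length and with the library. In expected counts, which are not per length, the log2 ratio of Slc25a5 over Slc25a4 went from 0.24 to -0.42 and that of Slc25a39 over Slc25a36 from 0.10 to -0.82, so both orders turned, while Mtch2 over Mtch1 was 3.01, Slc25a14 over Slc25a27 1.10, Slc25a12 over Slc25a22 2.69 and Slc25a44 over Slc25a29 1.37, against 3.32, 1.89, 1.44 and 0.53 in TPM. The log2 ratio of Slc25a53 over Slc25a35 was 2.41 in TPM and 1.46 in counts, and it lay between 1.18 without replicate 2 and 3.64 without replicate 1. The summed level rose from 2610 to 3385 when FPKM was rescaled without mitochondrial genes and Malat1. With a pseudocount of 0.1, 7 carriers were over 2-fold apart (10.7% of protein-coding genes), and with 5 none was (0.118%). With counts divided by 10, 0 of the carriers were beyond counting error, against 0.698% of all genes; edgeR and DESeq2 scaling gave 23 each, and no filter on low counts gave 21. The detected count lay between 27 and 40 over its 5 alternatives, with 37 without replicate 1 and 39 without replicate 2. The Slc25a3 exon 3A share lay between 28.2% and 32.1% over 3 alternatives chosen after seeing the data. No paired analysis was possible because there is 1 group. With 2 areas, no spread between animals can be given.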
